A study of Mus musculus with 4 samples.

Results

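The nexin-dynein regulatory complex and the axonemal ruler were followed here in the embryonic mouse retina through 10 genes, named by symbol: 8 subunits of the complex (Drc1, Ccdc65, Drc3, Gas8, Tcte1, Drc7, Iqcg and Iqcd) and both ruler genes (Ccdc39 and Ccdc40). Of these 10 genes, 9 were found among the 18471 genes read, and all 9 passed the filter on low counts that left 17300 tested genes. Drc7 was not analysed here.

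RNA was sequenced from retinas at embryonic day 19. Of the 4 libraries, 2 came from embryos labelled wild-type and 2 from embryos labelled Foxn3-/-, which carry the allele C57BL/6NJ-Foxn3em1(IMPC)Bay/Mmnc, in which exon 3 of Foxn3, a gene of the forkhead family of transcription factors, is deleted. Per the labels, each library came from the retina of a single genotyped embryo, so the spread between libraries of a group includes the spread between embryos. The study asks how Foxn3 takes part in a transcriptional network for primary cilia in the developing retina.

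The nexin-dynein regulatory complex is the linker between neighbouring outer doublet microtubules of a motile cilium or sperm tail, and it holds the doublets together while dynein arms slide them. DRC1, CCDC65 (DRC2) and GAS8 (DRC4) form its coiled-coil base plate, on which the other subunits are mounted. CCDC39 and CCDC40 form a paired coiled coil that lies along the doublet and sets the spacing at which the linker, the inner dynein arms and the radial spokes attach. Loss of human CCDC39, CCDC40, DRC1, CCDC65 or GAS8 causes primary ciliary dyskinesia, a disease of motile cilia. Cells of the developing retina carry primary cilia, which are immotile and are described without this linker.

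Before the values, the 120 bases before the RefSeq start of 5 of the genes are shown, because these genes moved together and because RFX factors, regulators of cilia genes, bind a DNA element called the X-box near such starts. They are Drc1 and Gas8, the linker genes with a very large and a small fold change, and Ccdc65, Drc3 and Iqcg, whose folds lie between. The sequences are from RefSeq on GRCm38.p6, printed 5′ to 3′ in the direction of transcription, and capitals mark matches to the X-box or its half-site.
Drc1 promoter, chr5:30281273-30281392, plus strand: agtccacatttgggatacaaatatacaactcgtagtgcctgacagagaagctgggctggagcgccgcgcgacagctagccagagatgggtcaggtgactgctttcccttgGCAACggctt
Gas8 promoter, chr8:123518715-123518834, plus strand: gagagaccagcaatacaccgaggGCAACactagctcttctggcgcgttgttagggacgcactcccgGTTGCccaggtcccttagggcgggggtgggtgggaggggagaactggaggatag
Ccdc65 promoter, chr15:98708074-98708193, plus strand: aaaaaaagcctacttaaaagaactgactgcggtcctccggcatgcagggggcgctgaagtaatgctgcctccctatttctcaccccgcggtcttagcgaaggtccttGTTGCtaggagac
Drc3 promoter, chr11:60353260-60353379, plus strand: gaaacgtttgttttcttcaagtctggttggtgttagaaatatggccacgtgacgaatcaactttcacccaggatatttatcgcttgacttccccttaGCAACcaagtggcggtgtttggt
Iqcg promoter, chr16:33056187-33056306, minus strand: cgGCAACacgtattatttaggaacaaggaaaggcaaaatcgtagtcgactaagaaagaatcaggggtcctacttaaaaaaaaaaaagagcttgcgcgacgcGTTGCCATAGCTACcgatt

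RefSeq promoter windows, 250 bases before to 50 after a start, matched 7 of the 9 measured genes. Tcte1 and Iqcd had no entry. The X-box was searched on both strands as GTNNCC, any 3 bases and GNNAC, which 4.62% of all 32851 promoter windows hold, and its half-site as GTTGC, which 35.2% hold; a half-site can lie inside an X-box match. The half-site was added after these sequences had been seen. An X-box match stood in 1 of the 7 windows, that of Iqcg, at positions -19 to -6 from the start. The half-site stood in 6 of the 7: in Drc1 at -10 to -6, in Ccdc65 at -13 to -9, in Drc3 at -23 to -19, and in Gas8 at -54 to -50. In Ccdc39 its only match lay after the start, at 17 to 21, and Ccdc40, with a GC content of 76.4% in the 250 bases before its start against a median of 52.4% over all windows, held none. The forkhead core TGTTTAC was found in 0 of the 7 windows (3.65% of all windows hold it), and the alternative forkhead element GACGC in 4, Ccdc65, Drc3, Gas8 and Iqcg (27.2% of all windows). These matches describe letters in a window and were not tested as binding sites.

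The libraries held 22543531 to 29360129 counts, and a count of 3 corresponded to 0.103 to 0.134 CPM, that is, read counts scaled to a common library size. The retina label was met by its markers: 18 of 18 retinal marker genes had at least 3 counts in every library, and their summed level was 4573 and 4775 CPM in the wild-type-labelled libraries and 4767 and 4830 CPM in the Foxn3KO-labelled pair. Foxn3 itself had 2421 and 2712 counts in the wild-type-labelled libraries and 4181 and 3219 in the Foxn3KO-labelled pair, which is 0.54 higher on the log2 scale (SE 0.046; edgeR adjusted p = 7.80e-08 by its quasi-likelihood test, adjusted after Benjamini and Hochberg over all genes tested, as throughout). Counts over the whole gene do not resolve exon 3 and so check nothing about its loss. The targeted gene was thus higher under the Foxn3KO label, and every direction given here rests on the labels. Wild-type replicate 1 stood apart in its sex-linked transcripts, with 83073 counts of Xist against 17, 19 and 9 in wild-type replicate 2 and Foxn3KO replicates 1 and 2. The mean chi-square per gene between replicates was 9.47 within the wild-type label and 1.85 within the Foxn3KO label. The wild-type mean includes Xist and other sex-linked genes that differ between the wild-type replicates, such as Ddx3y with 0 and 2203 counts. Its value without them was not computed, so it does not give the spread of the other genes.

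All 9 measured genes rose in the Foxn3KO-labelled libraries. Over the whole table, 21.9% of the 17300 tested genes had an adjusted p under 0.05, 12.3% were higher, and 2.86% were called and at least 2-fold higher. Of the 9 genes, 9 were called higher and 8 of them by at least 2-fold. Their median log2 fold change was 2.76, against -0.00470 over all tested genes. Tcte1 passed the filter on low counts only through the Foxn3KO-labelled pair, where it is high, so its call is no support. With at least 10 counts required in every library, which leaves Tcte1 out, 8 of 8 were called higher, with a median of 2.74. In each of the 9, both Foxn3KO-labelled libraries lay above both wild-type-labelled ones. The share of all tested genes that do the same was not counted, so this separation is a description only. The edgeR adjusted p-values of the 9 ran from 1.88e-16 to 2.25e-08. Without wild-type replicate 1, the library with the other sex-linked pattern, all 9 were again called higher. These are tissue homogenates, so more cells with the transcript and more transcript per cell cannot be told apart. Only the sum over the retina was measured.

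**Figure D1:**
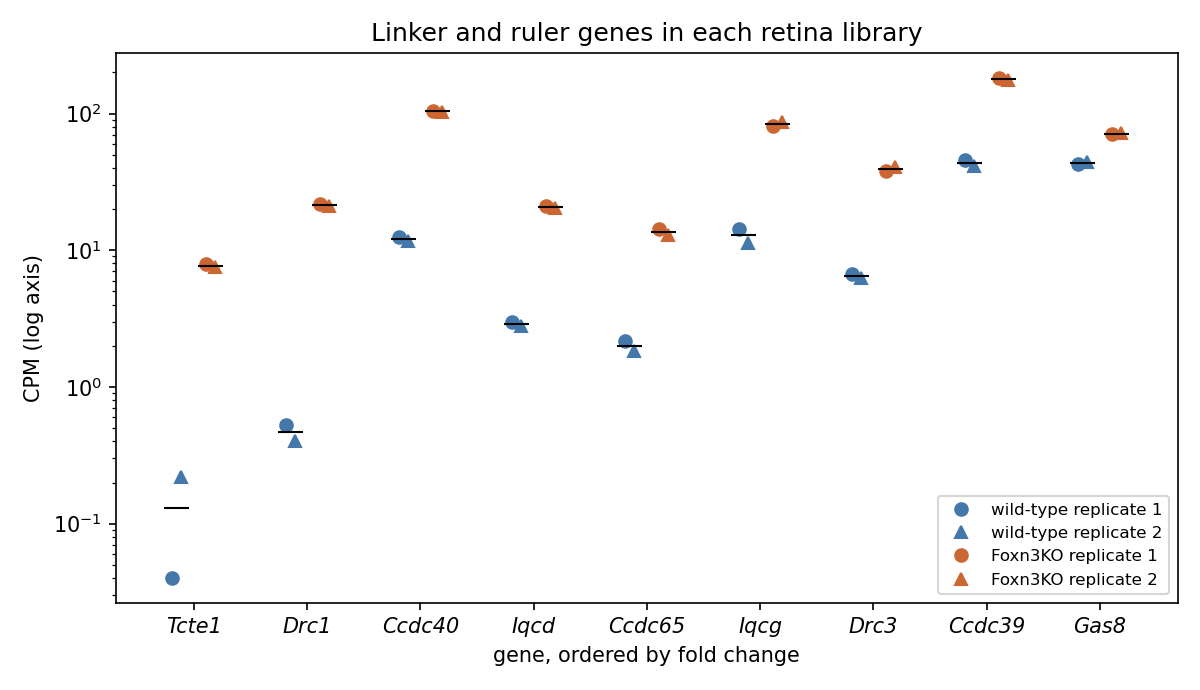
CPM on a log axis of the 9 genes in each of the 4 libraries, with circles for replicate 1, triangles for replicate 2 and a black line at each group's mean (n = 2). Both Foxn3KO-labelled libraries lie above both wild-type-labelled ones for every gene, and the distance narrows from Tcte1 on the left to Gas8 on the right.

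The base plate genes were compared first. Drc1 (ENSMUSG00000073102, chromosome 5), which encodes a scaffold subunit, had 0.524 and 0.405 CPM in the wild-type-labelled libraries and 21.8 and 20.9 CPM in the Foxn3KO-labelled pair. It went from a level of a few counts, 13 and 11, to 634 and 469 counts, with no overlap between the groups. Its log2 fold change was 5.52 (SE 0.17, edgeR adjusted p = 5.05e-14), and only 0.0694% of tested genes had a higher one. The summed counts give a ratio of 46.4, with an exact 95% interval of 31.0 to 72.7 that covers counting error only.

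Ccdc65 (ENSMUSG00000003354, chromosome 15), whose product pairs with DRC1, had 2.18 and 1.84 CPM in the wild-type-labelled libraries and 14.2 and 12.9 CPM in the Foxn3KO-labelled pair. The replicates of each group lay close together and the groups were far apart. Its log2 fold change was 2.76 (SE 0.15, edgeR adjusted p = 2.02e-10). Its wild-type level stood on 54 and 50 counts, more than Drc1 had.

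Gas8 (ENSMUSG00000040220, chromosome 8) was the exception in size. This subunit has also been described at primary cilia, in Hedgehog signalling. Its level was 42.5 and 44.1 CPM in the wild-type-labelled libraries and 70.9 and 71.5 CPM in the Foxn3KO-labelled pair. All 4 libraries were high, and the groups still did not overlap. Its rise of 1.64-fold (log2 fold change 0.72, SE 0.056, edgeR adjusted p = 2.25e-08) was the smallest of the 9 genes, and 5.50% of all tested genes had a higher fold change.

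The subunits mounted on the base plate followed. Drc3 (ENSMUSG00000056598, chromosome 11), a leucine-rich repeat subunit, had 6.65 and 6.26 CPM in the wild-type-labelled libraries and 38.2 and 40.6 CPM in the Foxn3KO-labelled pair. Its log2 fold change was 2.61 (SE 0.087, edgeR adjusted p = 1.39e-13). Iqcg (ENSMUSG00000035578, chromosome 16), which carries a calmodulin-binding IQ motif and is needed for sperm tail formation, had 14.4 and 11.4 CPM against 81.3 and 86.3 CPM. The SD of its wild-type replicates was 2.11 CPM (n = 2), well under the distance between the groups. Its log2 fold change was 2.71 (SE 0.085, edgeR adjusted p = 6.40e-14).

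Iqcd (ENSMUSG00000029601, chromosome 5), the other IQ motif subunit, had 2.98 and 2.80 CPM in the wild-type-labelled libraries and 21.0 and 20.3 CPM in the Foxn3KO-labelled pair. Its log2 fold change of 2.84 (SE 0.12, edgeR adjusted p = 4.24e-12) stood close to those of Ccdc65, Iqcg and Drc3, which together spanned 2.61 to 2.84.

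Tcte1 (ENSMUSG00000023949, chromosome 17), a leucine-rich repeat subunit known from sperm motility, was at the detection limit in the wild-type-labelled libraries, with 1 and 6 counts (0.0403 and 0.221 CPM). It reached 231 and 168 counts (7.93 and 7.50 CPM) in the Foxn3KO-labelled libraries. The log2 fold change of 5.79 (SE 0.33, edgeR adjusted p = 3.05e-10) rests on 7 counts in all on the wild-type side. Tcte1 passed the filter on low counts only through the Foxn3KO-labelled pair. Leaving out wild-type replicate 1 gave 5.10, and leaving out wild-type replicate 2 gave 7.42. The ratio of summed counts was 57.5 with an exact 95% interval of 27.7 to 144.

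The ruler genes were the most abundant of the 9 by counts in the Foxn3KO-labelled libraries. Ccdc39 (ENSMUSG00000027676, chromosome 3) had 46.0 and 41.6 CPM in the wild-type-labelled libraries and 181.9 and 175.7 CPM in the Foxn3KO-labelled pair. Ccdc40 (ENSMUSG00000039963, chromosome 11) had 12.5 and 11.6 CPM against 104.3 and 103.0 CPM. Both were well expressed under the wild-type label and higher under the other. The log2 fold change was 2.03 for Ccdc39 (SE 0.055, edgeR adjusted p = 8.87e-15) and 3.11 for Ccdc40 (SE 0.063, edgeR adjusted p = 1.88e-16), so the less abundant partner had the larger fold.

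**Figure D2:**
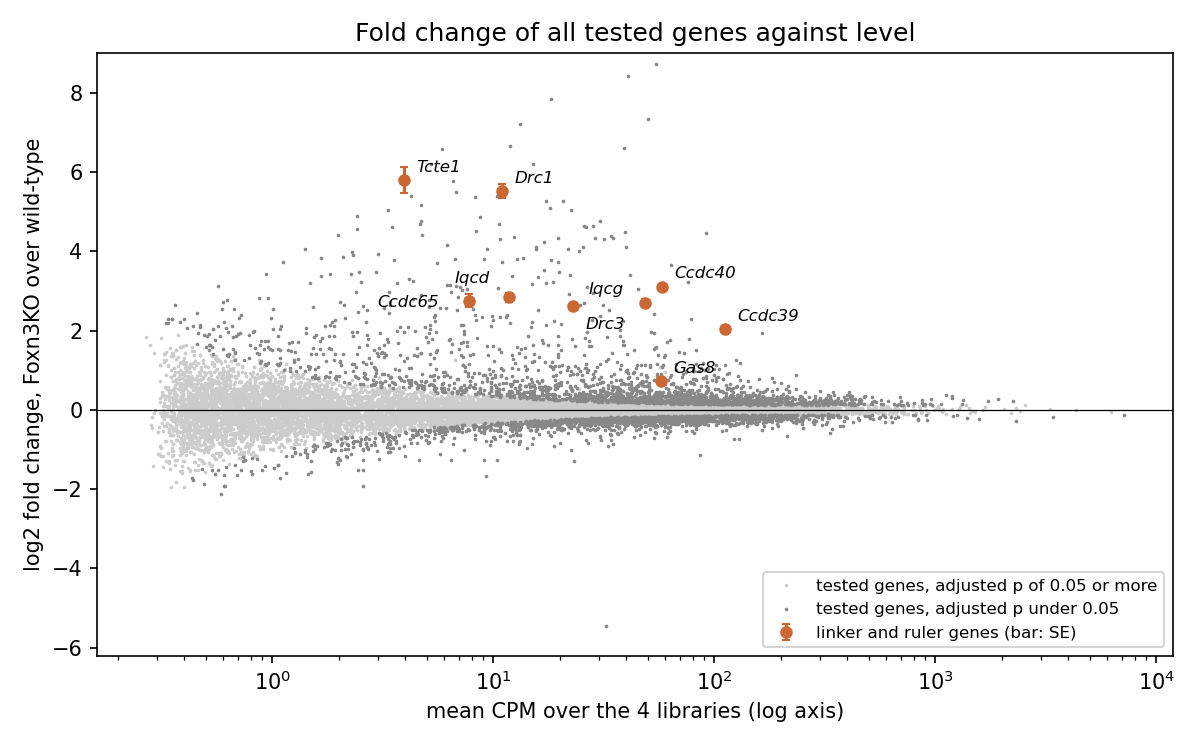
Log2 fold change of every tested gene (Foxn3KO over wild-type) against its mean CPM over the 4 libraries on a log axis; Xist, at -11.58, lies outside the plotted range. The 9 labelled genes, with SE bars, all lie above 0, from Gas8 at 0.72 to Tcte1 at 5.79.

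Levels can be compared between genes only per length, so CPM was divided by the gene length in kb recovered from the deposited FPKM. In the wild-type-labelled libraries the order was Gas8 at 10.8 ± 0.294, Ccdc39 at 5.88 ± 0.423, Iqcg at 2.09 ± 0.342, Ccdc40 at 2.00 ± 0.0973, Iqcd at 1.72 ± 0.0786, Drc3 at 1.43 ± 0.0621, Ccdc65 at 1.01 ± 0.120, Drc1 at 0.173 ± 0.0314 and Tcte1 at 0.0424 ± 0.0415 CPM per kb (SD, n = 2 each). Iqcg and Ccdc40 overlapped in this order, and the other neighbours did not. Without Tcte1, which was at the detection limit, the highest of these 8 levels was 62.3 times the lowest. The lowest of the 8 was that of Drc1, on 13 and 11 counts, and the next lowest was that of Ccdc65.

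In the Foxn3KO-labelled libraries the order was Ccdc39 at 24.0 ± 0.596, Gas8 at 17.7 ± 0.109, Ccdc40 at 17.2 ± 0.150, Iqcg at 13.6 ± 0.576, Iqcd at 12.3 ± 0.313, Drc3 at 8.73 ± 0.377, Drc1 at 7.96 ± 0.219, Ccdc65 at 6.80 ± 0.454 and Tcte1 at 2.51 ± 0.0991 CPM per kb (SD, n = 2 each). No neighbours overlapped here. Over the same 8 genes the highest level was 3.53 times the lowest, so the levels lay closer together than in the wild-type-labelled libraries. How much closer depends on the wild-type level of Drc1, which stood on 13 and 11 counts. Over all 9 genes the highest was 9.57 times the lowest here, and 254 times in the wild-type-labelled libraries, where Tcte1 was at the detection limit. The median over the 9 genes was 1.72 CPM per kb in the wild-type-labelled libraries and 12.3 in the Foxn3KO-labelled pair.

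Several pairs of genes stood nearer to equal levels per length in the Foxn3KO-labelled libraries. Of 8 ratios computed between chosen pairs of the 9 genes, 6 did not overlap between the groups. The share over all pairs was not counted, and a ratio restates the difference between 2 folds given above. Several of the 6 share Gas8, and that of Tcte1 to Drc3 rests on 1 and 6 wild-type counts of Tcte1. The Ccdc39 to Ccdc40 ratio was 2.99 and 2.89 in the wild-type-labelled libraries and 1.41 and 1.38 in the Foxn3KO-labelled pair. The Drc1 to Ccdc65 ratio moved from 0.179 and 0.163 to 1.14 and 1.20. The Gas8 to Ccdc65 ratio moved from 9.68 and 11.9 to 2.48 and 2.75. These are among the 6, whereas the Iqcg to Iqcd ratio (1.31 and 1.11 against 1.05 and 1.16) and the Drc3 to Iqcg ratio (0.632 and 0.751 against 0.642 and 0.642) overlapped. With 2 libraries against 2, an exact permutation test cannot give a two-sided p below 0.333, so no p is given for a ratio.

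The gain per length, a difference of levels, varied less among the genes than the fold did. Gas8 gained 6.96 CPM per kb (SE 0.222), Drc3 7.30 (SE 0.270), Drc1 7.78 (SE 0.156) and Ccdc65 5.79 (SE 0.332). Gas8, with the smallest fold of the 9 genes, thus gained about as much transcript per length as Drc3: over the 4 pairings of a Foxn3KO with a wild-type library, the gain ran from 6.67 to 7.24 for Gas8 and from 6.99 to 7.61 for Drc3. Ccdc39 gained most, 18.1 CPM per kb (SE 0.517), followed by Ccdc40 with 15.2 (SE 0.127), Iqcg with 11.5 (SE 0.474) and Iqcd with 10.6 (SE 0.228). Tcte1 gained least, 2.47 (SE 0.0760). Over the 8 genes without Tcte1, the largest gain was 3.13 times the smallest, and the largest fold was 27.8 times the smallest. Over all 9 genes these were 7.35 and 33.7 times. The largest fold of the 8, 45.8, was that of Drc1, on 13 and 11 wild-type counts. The next largest was 8.61, that of Ccdc40, so much of the spread of the folds rests on Drc1. The length covers all annotated exons of a gene, so a change of isoform would alter these values, which was not tested.

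**Figure D3:**
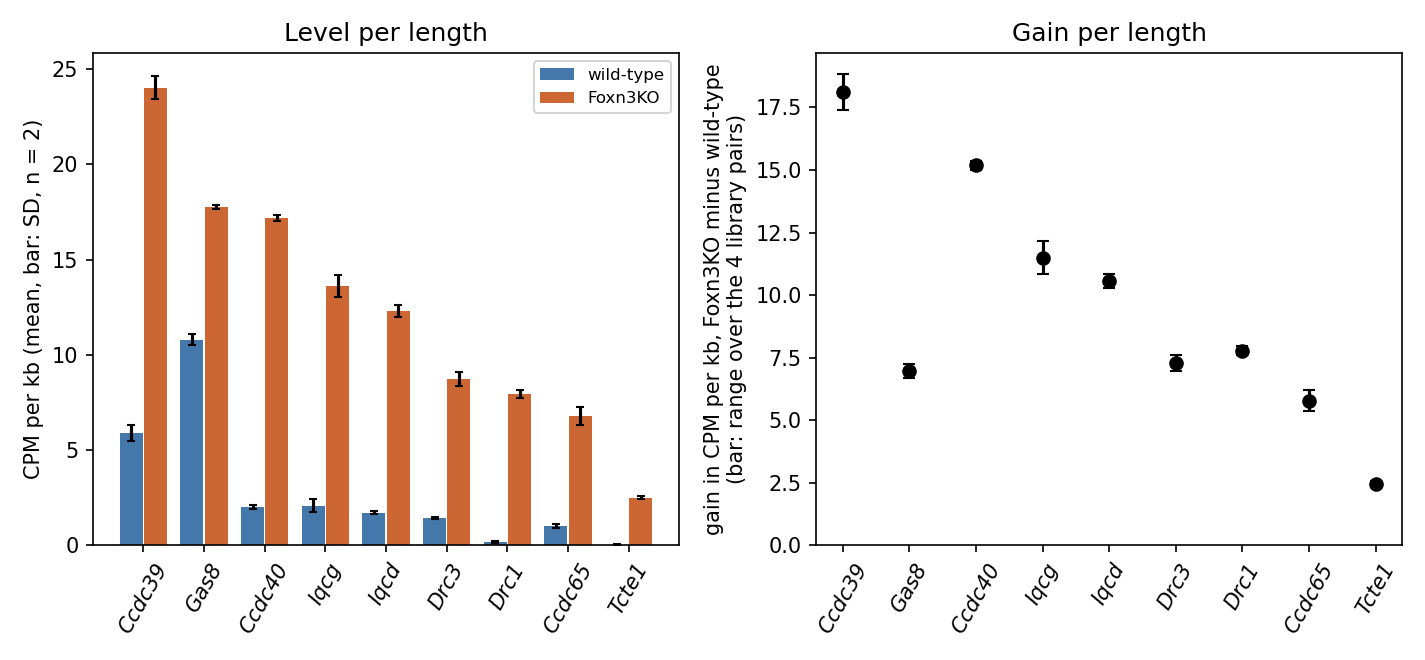
Left, CPM per kb of each gene in both groups (bars, mean; error bars, SD, n = 2). Right, the gain in CPM per kb (points, mean, with bars for the range over the 4 library pairs). Gas8, at 6.96, lies at a similar height to Drc3, at 7.30, although the wild-type level of Gas8 is the highest of the 9.

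Exons of 4 of the genes overlap exons of a gene on the opposite strand in GENCODE M21 (GRCm38): Iqcg with Lrch3 over 2965 bases, Ccdc39 with Ttc14 over 1256, Tcte1 with Tmem151b over 729 and Iqcd with Rita1 over 269. The kit keeps strand, but whether the counting used it is not given in the sources used here, so reads of these pairs may be mixed. The opposite genes did not rise past the threshold. Ttc14 (log2 fold change -0.40, edgeR adjusted p = 3.27e-06) and Lrch3 (-0.20, edgeR adjusted p = 0.00867) fell. Tmem151b had a log2 fold change of 0.16 (edgeR adjusted p = 0.0808) and Rita1 of -0.05 (edgeR adjusted p = 0.772). Drc1, Ccdc65, Drc3, Gas8 and Ccdc40 shared no exon bases with another annotated gene.

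The remaining subunits of the linker were measured through Fbxl13 (DRC6) and Efcab2 (DRC8); Iqca1 (DRC11) and Ccdc153 (DRC12) were not analysed here. Both rose, 2 of 2. Fbxl13 had 16 and 15 counts in the wild-type-labelled libraries and 78 and 41 in the Foxn3KO-labelled pair, a log2 fold change of 1.93 (SE 0.33, edgeR adjusted p = 0.000370). Efcab2, which encodes an EF-hand subunit, had a log2 fold change of 0.47 (SE 0.083, edgeR adjusted p = 0.000445) and, like Gas8, a high level to begin with, 17.8 ± 1.20 CPM (SD, n = 2). Unlike Gas8 it gained little per length, 1.65 CPM per kb (SE 0.220).

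Structures that the ruler positions were read beside the 9 genes, from lists written with earlier results of these data known. Of proteins that sit at the linker or at the base of inner arms, 6 of 6 tested rose. Their median log2 fold change was 2.94. With at least 10 counts required in every library, 4 of 4 were called higher, with a median of 2.47. The smallest p-values were those of Cfap44, Ccdc96 and Cfap43. Cfap44, of a tether of an inner arm dynein, had 8 and 4 counts in the wild-type-labelled libraries and 2389 and 1801 in the Foxn3KO-labelled pair. Cfap43, of the same tether, had 7 and 0 counts against 301 and 229. Both passed the filter on low counts only through the Foxn3KO-labelled pair, so their calls are no support. The sizes of their fitted log2 fold changes (8.43 and 6.20) rest on a few wild-type counts. Ccdc96, a linker-associated coiled coil, had a log2 fold change of 2.38. Of inner-arm dynein heavy chains, the motors next to the linker, 5 of 6 rose, with a median of 1.26. By DESeq2, by limma-voom and with total count scaling, 4 of 6 were called higher. Dnah10 had a log2 fold change of 7.32, Dnah2 of 1.62 and Dnah7b of 0.91. The sixth, Dnah1, had 0.01 (edgeR adjusted p = 0.978). Of radial spoke genes 11 of 11 rose, with a median of 1.86; those with the smallest p-values were Cfap206 (log2 fold change 4.11), Rsph1 (2.41) and Cfap91 (5.38). The median over all tested genes was -0.00470, and 12.3% of them were called higher.

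Regulators of multiciliated cells were split. Foxj1, the forkhead regulator of motile cilia, rose by 4.45 on the log2 scale (8.01 ± 0.436 against 175.9 ± 1.58 CPM, SD, n = 2 each; edgeR adjusted p = 1.60e-18). Rfx2 (1.41), Rfx1 (0.46) and Rfx3 (0.40), the X-box factors, rose, as did Ccno (3.14) and Deup1 (1.73), genes of centriole amplification. Foxn4 (-0.02, edgeR adjusted p = 0.776), Myb (-0.03, edgeR adjusted p = 0.602) and Trp73 (-0.28, edgeR adjusted p = 0.628) did not pass. Thus 6 of 9 tested regulators were higher and 0 lower, where 12.3% of all tested genes were called higher. Deup1, with 12 and 10 wild-type counts, passed the filter on low counts only through the Foxn3KO-labelled pair. With at least 10 counts required in every library, 6 of 9 were again called higher, and by DESeq2 5 of 9. Mcidas and Gmnc were not analysed here.

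**Figure D4:**
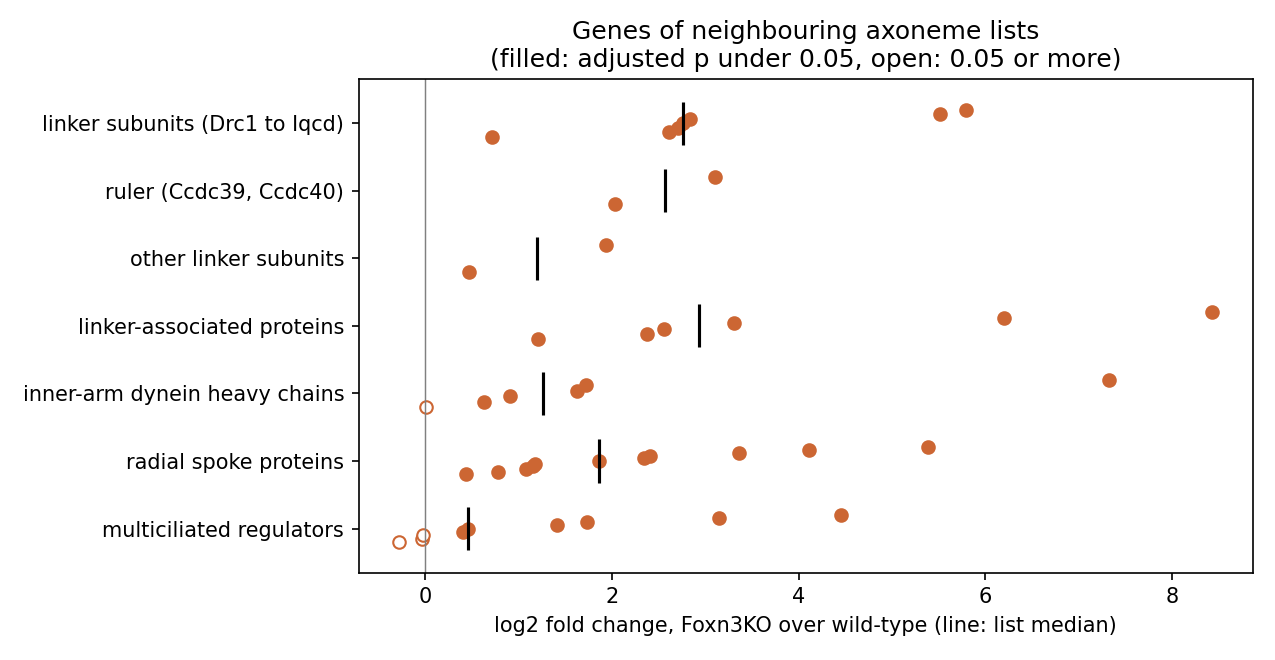
Log2 fold change (Foxn3KO over wild-type) of each tested gene of the linker, the ruler and 5 related lists; filled points have an adjusted p under 0.05, open points 0.05 or more, and a black line marks each list's median. The 9 linker and ruler genes are all filled and above 0, and open points occur for Dnah1 and for Foxn4, Myb and Trp73.

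The gene patterns nearest to the mean of the 9 over the 4 libraries, among the other tested genes above a mean level of 1 CPM, were Spag8, Klf4, Lrrc23, Dnai2 and P2rx6. Likeness was the root mean square distance of centred log2 CPM, 0.0476 for Spag8 and 0.0669 for P2rx6. Their log2 fold changes were 3.02, 3.24, 3.06, 3.17 and 3.42. The 4 points share the genotype contrast, so this likeness is a description over 4 libraries only. Among the 9 genes Ccdc40 lay nearest to the mean (0.0483), and Tcte1, Gas8 and Drc1 farthest (1.26, 1.16 and 1.14).

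Markers of tissues next to the retina or with motile cilia were summed in each library. Lens genes moved with the groups: 9 of 11 were measured, 9 of 9 rose. Their summed level was 5.69 and 72.5 CPM in the wild-type-labelled libraries and 294 and 295 CPM in the Foxn3KO-labelled pair. Cryaa, Cryba1, Cryba2, Crybb3 and Mip passed the filter on low counts only through the Foxn3KO-labelled pair, so their calls are no support. Between the wild-type replicates the lens sum differed 12.8-fold, higher in replicate 2. The levels of the 8 genes without Tcte1 in replicate 2 were 0.772 to 1.04 times those in replicate 1. The level of Tcte1, on 1 and 6 counts, was 5.48 times that in replicate 1. Pigment epithelium genes (9 of 10 measured, 8 tested, 0 rose and 4 fell) summed to 89.6 and 118 CPM against 72.8 and 73.9 CPM; Rpe65 was not analysed here. Choroid plexus genes (9 of 11 measured, 8 tested, 2 rose and 2 fell) summed to 479 and 483 CPM against 480 and 469 CPM, of which most is Otx2, a gene the retina also expresses. The 2 that rose were Folr1, from a mean of 1.28 to 4.87 CPM, and Aqp1, from 1.55 to 3.58 CPM. The 2 that fell were Ttr, from 4.31 to 2.43 CPM, and Clic6, from 3.80 to 1.34 CPM. Ttr is also 1 of the 4 pigment epithelium genes that fell. Ependymal genes outside the axoneme (8 of 10 measured, 1 rose and 1 fell) summed to 2135 and 2117 CPM against 2233 and 2259 CPM. Most of that sum was Nnat, Cd24a and Vim, with means of 1182, 514 and 305 CPM in the wild-type-labelled libraries. S100b, Aqp4 and Acta2 had means of 1.75, 0.802 and 0.743 CPM there. Beside the counts of these lists, 21.9% of all tested genes were called, and 12.3% were called higher. Of 12 airway and nasal genes only Aldh1a1, which the retina expresses, was measured (1 rose), at 113 and 71.3 CPM against 146 and 141 CPM; the others, Foxa1 and Scgb1a1 among them, were not analysed here. The part of any of these tissues in the rise of the linker and ruler genes was not tested.

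In the authors' deposited table the same 9 genes have adjusted p-values from 2.64e-237 (Ccdc40) to 1.86e-17 (Gas8). The authors' deposited table gives log2 fold changes of 5.49 for Drc1, 5.73 for Tcte1, 3.10 for Ccdc40, 2.03 for Ccdc39 and 0.70 for Gas8, shrunken values that lie within 1 SE of those above.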

How the data were processed

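The deposited table gives, for every gene, unnormalized read counts of the authors in 4 libraries as whole numbers; no gene in it has fewer than 16 counts in all. Per the submitters' processing notes, mm39 and DESeq2 were used; the aligner, the counter, the annotation, the strand setting and the use of molecular identifiers are not given in the sources used here. The authors' FPKM values per library served only to recover gene lengths, and the authors' baseMean signal equalled the mean of counts over size factors. The authors' log2 fold changes, their standard errors (a score column of the deposited table) and their adjusted p-values are printed only where named.

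A repeated gene identifier was dropped, which left 18471 genes. After filterByExpr, 17300 genes were scaled with TMM. The test was the two-sided quasi-likelihood F test of edgeR 4.0.16 (R 4.3.3) in its edgeR 4 form, with no term besides genotype. P-values were adjusted after Benjamini and Hochberg over these 17300 genes, and 0.05 was the threshold. An SE is the log2 fold change over the square root of F. CPM used TMM-adjusted library sizes; log2 CPM for the pattern search used a prior count of 2. On simulated data for this comparison over 17300 genes, 98% of genes changed 16-fold, 96% of those changed 4-fold and 72% of those changed 2-fold were called, and 1 unchanged gene was called. Intervals of summed counts are exact (Clopper-Pearson, 95%) and, like the limit of 3 counts, cover counting error only.

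Genes named outside the 9 are Foxn3, all tested genes of the short lists of other subunits and regulators, the 3 with the smallest p of each other list, and the 5 nearest patterns; Lrch3, Ttc14, Tmem151b and Rita1 and the marker genes were named after their values were seen. The genes and lists were chosen with earlier results of these data known. Alternatives were RLE and total count scaling, DESeq2 1.42.0, limma-voom (limma 3.58.1), the earlier edgeR fit, no filter, 10 or more counts in each library, a 2-fold minimum, a replicate block, and omission of 1 library at a time. Figures were drawn with matplotlib 3.10.9.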

Additional observations from a re-analysis of the deposited data

How the results depend on the processing

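All 9 genes were called higher under each of the alternatives in which they were tested, except Gas8 under the 2-fold minimum, as its fold of 1.64 requires; Tcte1 was not tested with at least 10 counts in every library. Over these alternatives the largest adjusted p of any of the 9 was 2.73e-07 (edgeR, DESeq2 or limma-voom). Leaving out a library leaves a lone sample in a group, which is assumed to vary like the other group; the median log2 fold change of the 9 then ran from 2.64 to 2.89, and all 9 were called each time. The median level per length then ran from 1.66 to 1.77 CPM per kb (wild-type) and from 12.1 to 12.5 (Foxn3KO). Over all tested genes, DESeq2 called 2437, 904 of them lower, against 3795 and 1672; the cause was not tested. Leaving out a library gave 2323 to 5067 calls, 836 to 2310 of them lower. The 2-fold minimum left 568 calls, 494 higher and 74 lower, with 1 of the other linker subunits and 3 inner-arm heavy chains, by construction. The median of the linker-associated list was 2.47 with at least 10 counts in every library, where 4 of its 6 genes are tested, and 2.74 to 3.25 when a library was left out. The median of the regulators ran from 0.417 to 0.570, the highest without wild-type replicate 2. Replicate numbers shared between the groups carry no pairing: the difference between replicates correlated at -0.00825 between the groups over 17300 genes. With the replicate block, 4222 genes were called, all 9 linker and ruler genes were called higher, and their median was 2.75. Depth limits the folds of Tcte1 and Drc1, which had at most 13 counts in a library labelled wild-type.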

Other observations

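Klf4 and P2rx6, among the 5 genes with patterns nearest to the mean of the linker and ruler genes, are not axonemal genes. Klf4, a zinc finger transcription factor, had 20 and 23 counts in the wild-type-labelled libraries and 235 and 171 in the Foxn3KO-labelled pair. P2rx6, a subunit of ATP-gated channels, had 8 and 8 counts against 98 and 74. Both were called higher (log2 fold change 3.24 and 3.42, edgeR adjusted p = 1.67e-09 and 3.92e-07), and the groups did not overlap. Both were picked for a pattern that follows the groups, so the calls and the lack of overlap follow from that choice. P2rx6 also passed the filter on low counts only through the Foxn3KO-labelled pair.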
